A study of Rattus norvegicus with 30 samples.

Results

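Antioxidant defence genes were followed in primary cultures of rat inner medullary collecting duct cells kept at, or moved between, osmolalities of 300, 600 and 900 mosmol/kg. The set lists 39 genes of the NRF2 pathway, glutathione synthesis, glutathione and thioredoxin recycling, the pentose phosphate pathway and peroxide removal. Genes were taken by their symbol in the platform annotation, each by the probe set that carried that symbol alone and had the highest mean over all 30 arrays. By this rule 37 of the 39 were measured, among 14506 genes in all. Pgd and Mgst3 had no such probe set and were not used here.

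The collecting duct of the inner medulla is the last part of the nephron, where urea and salt reach high concentrations during water conservation. Total RNA of the cultures was hybridised to Affymetrix whole-transcript arrays, 3 for each of 10 groups. One group was returned from 900 to 300 mosmol/kg and sampled after 24 h, 4 groups were raised from 300 to 600 mosmol/kg and sampled after 3, 12, 24 and 48 h, and 2 groups were raised from 600 to 900 mosmol/kg and sampled after 12 and 24 h. The other 3 groups were kept at 300, 600 or 900 mosmol/kg and are called steady 300, steady 600 and steady 900. All 30 samples list 5 µM cyclosporin A, a calcineurin inhibitor, as a treatment, but the titles leave it out, and the labels do not settle which cultures were given it. No source says whether the 3 arrays of a group came from separate animals or cultures, and the p-values below therefore reflect array-to-array spread that may be technical.

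The transcription factor NRF2, encoded by Nfe2l2, is held low by KEAP1, which presents it for degradation. When KEAP1 cysteines are oxidised or modified, NRF2 accumulates and activates genes through the antioxidant response element, a short sequence in their promoters and enhancers. Its targets make glutathione, reduce glutathione and thioredoxin, and supply NADPH, the electron donor for both. Glutathione peroxidases and peroxiredoxins then spend these thiols on removing peroxides, and glutathione transferases spend glutathione on electrophiles.

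Levels are log2 values, so a difference of 1 is a doubling, and levels of different genes are not compared because each has its own probes. All 30 arrays correlated best with an array of their own group. The labels of osmolality were checked with aldose reductase (Akr1b1), which makes sorbitol and is induced by hypertonicity in kidney medulla: it averaged 10.93 ± 0.071 in steady 300, 12.67 ± 0.043 in steady 600 and 13.26 ± 0.046 in steady 900 (SD, n = 3 each). The myo-inositol transporter gene Slc5a3, of the same response, averaged 5.87 ± 0.16, 8.21 ± 0.12 and 9.72 ± 0.074 in the same order. The epithelial marker Epcam lay between 11.54 and 12.04 in all 10 groups. Cdh1, another epithelial marker, averaged 11.10 in steady 300 and 10.16 at 12 h after the step to 600 mosmol/kg. Of 7 epithelial markers, 3 were higher and 2 lower in steady 900 than in steady 300. At 3 h after the step to 600 mosmol/kg 4 were lower and none higher than in steady 300. At 12 h after the step to 900 mosmol/kg 5 were lower and none higher than in steady 600. The principal cell water channel Aqp2 averaged 5.61 ± 0.49 in steady 300, the 37.2 percentile of all genes there, and 12.04 ± 0.073 in steady 900. Replicate 3 of the 3 h group stood apart from the other 2 of its group, with median differences to them of 0.205 and 0.198 over all genes against 0.122 between those 2, and replicate 9 of the group 12 h after the step to 900 mosmol/kg did so with 0.200 and 0.194 against 0.0971. Without them the counts of members called in those comparisons were 20, against 22 with replicate 3 of the 3 h group, and 21, against 22 with replicate 9.

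Promoters are shown for 4 members whose levels are described next and whose promoters hold a core antioxidant response element, TGACNNNGC, read on either strand. They are the RefSeq sequences (GRCr8) from 250 bases before to 50 bases after the annotated start, with the match in capitals; a match on the other strand appears as its reverse complement. Me1 (malic enzyme) spans chr8:96540195-96540494 on the minus strand, Gstp1 (glutathione transferase pi) chr1:210769656-210769955 on the minus strand, Gclm (the modifier subunit of glutamate-cysteine ligase) chr2:213031885-213032184 on the plus strand and Gpx2 (an epithelial glutathione peroxidase) chr6:101229984-101230283 on the minus strand.
Me1: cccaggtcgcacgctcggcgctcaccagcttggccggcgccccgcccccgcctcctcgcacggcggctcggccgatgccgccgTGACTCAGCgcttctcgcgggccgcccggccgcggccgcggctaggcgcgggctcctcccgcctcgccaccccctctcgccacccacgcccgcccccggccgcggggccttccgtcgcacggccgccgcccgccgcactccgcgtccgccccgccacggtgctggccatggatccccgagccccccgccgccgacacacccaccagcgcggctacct
Gstp1: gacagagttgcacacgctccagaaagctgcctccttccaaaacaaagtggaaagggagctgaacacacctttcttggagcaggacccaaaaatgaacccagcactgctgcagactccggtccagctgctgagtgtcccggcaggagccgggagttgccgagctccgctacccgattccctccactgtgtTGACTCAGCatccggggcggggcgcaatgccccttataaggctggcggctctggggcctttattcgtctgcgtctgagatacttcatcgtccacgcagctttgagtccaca
Gclm: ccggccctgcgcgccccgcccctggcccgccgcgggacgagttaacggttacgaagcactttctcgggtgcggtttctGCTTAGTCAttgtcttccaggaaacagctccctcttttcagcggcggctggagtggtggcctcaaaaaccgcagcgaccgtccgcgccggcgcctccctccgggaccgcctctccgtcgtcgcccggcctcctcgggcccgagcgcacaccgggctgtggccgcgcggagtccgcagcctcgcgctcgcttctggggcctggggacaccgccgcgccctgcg
Gpx2: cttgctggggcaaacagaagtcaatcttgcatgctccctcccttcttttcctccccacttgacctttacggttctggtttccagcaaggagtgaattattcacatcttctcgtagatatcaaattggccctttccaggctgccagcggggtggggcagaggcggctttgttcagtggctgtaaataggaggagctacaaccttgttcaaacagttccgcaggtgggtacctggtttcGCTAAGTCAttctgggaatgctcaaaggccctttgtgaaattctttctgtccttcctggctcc

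Me1 and Gstp1 carry the same 9 letters, TGACTCAGC, on the sense strand, first base at -167 in Me1 and at -61 in Gstp1, counted from the start. Gclm and Gpx2 carry their match on the other strand, with its first base at -172 in Gclm and at -13 in Gpx2. Of the 32 measured members with a promoter in the table, 9 held the element (28.1%), against 4038 of all 33469 promoters of that length (12.1%). The other 5 were Nfe2l2, Prdx1, Prdx4, Prdx5 and Sod2. The letters TGGAAA, the core of the binding site of NFAT5, the transcription factor of the hypertonic response, were found on either strand in 5 of the 32 (15.6%), against 22.7% of all promoters. Gsr, Hmox1, Mgst2, Prdx6 and Sod3 had no entry. These matches describe letters in a window and were not set against binding.

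Most antioxidant genes differed between groups, and many by a wide margin. The limma F test across the 10 groups passed for 36 of the 37 measured members, against 73.7% of all genes. Of the 37, 28 were among the brightest of 3 equal groups of genes, where the test passed for 98% of genes and for 27 of these 28 members, a share near the background. The exception was Sod1, cytosolic superoxide dismutase, whose group means spanned 0.41 (limma adjusted p = 0.113); the 3 h replicate that stands apart gave its lowest array but one, and without that array the F test passed for all 37. The group means of 24 members (64.9%) spanned at least 1, against 27.3% of all genes, and the median span was 1.30 for members and 0.66 for all genes. Among the brightest genes these shares were 64.3% of members and 33.7% of genes, with median spans of 1.22 and 0.81. Gstm2 (3.08), Nqo1 (2.65), Gsta4 (2.49), Mgst1 (2.35) and Gstm1 (2.24) had the widest spans. Of the members, 15 had their lowest mean 12 h after the step from 600 to 900 mosmol/kg, while 11 had their highest mean after the return to 300 mosmol/kg. The same counts were not made over all genes. In the first of these groups 41.2% of the brightest genes were lower than in steady 600, so the counts are not read as particular to the members.

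**Figure D1:**
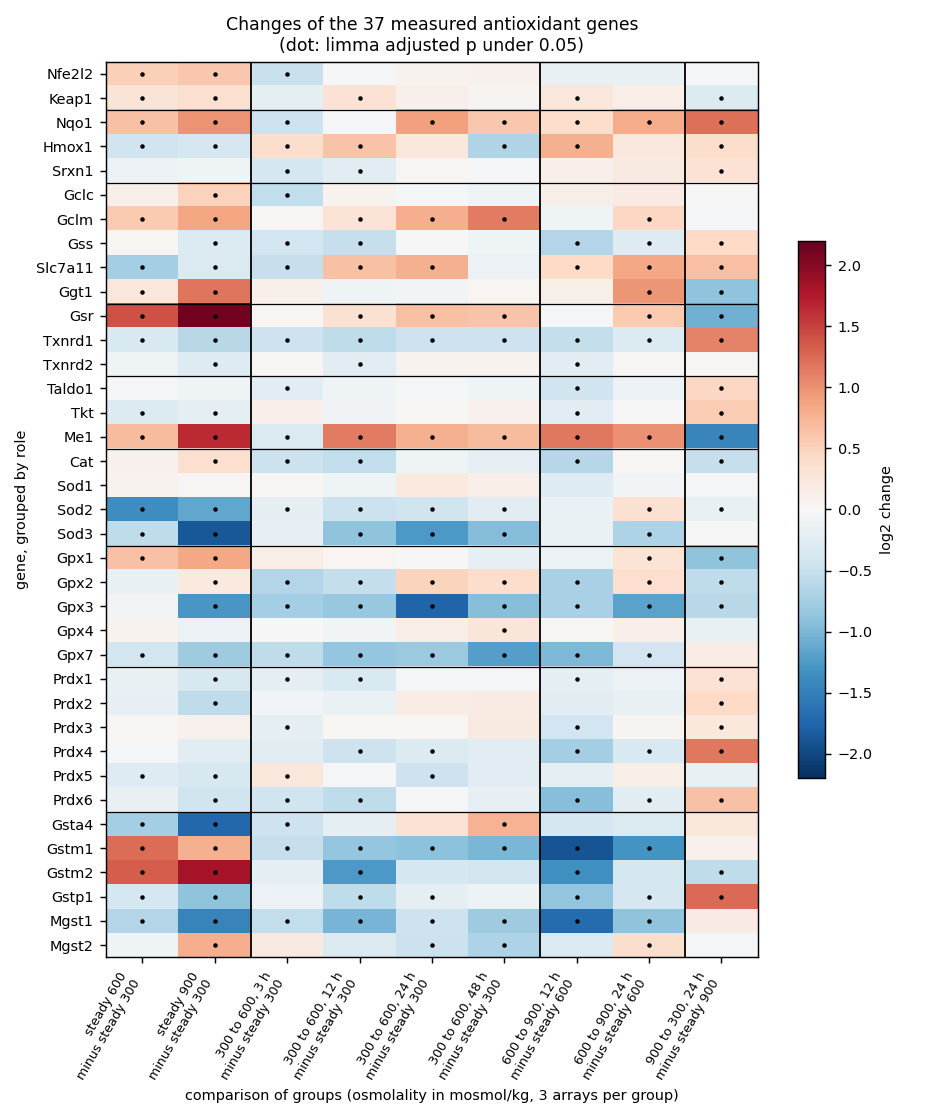
Log2 changes of the 37 measured genes (rows, grouped by role) in 9 comparisons of groups (columns, 3 arrays per group, mosmol/kg); red is higher and blue lower in the group named first, and a dot marks a limma adjusted p under 0.05. Gsr and Me1 are red across most osmolality increases and blue on return. The transferases Gstm1 and Gstm2 are red in steady 600 and steady 900 against steady 300 and blue after the upward steps.

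Between cultures kept at different osmolalities, glutathione reductase and malic enzyme rose most steadily with osmolality, while Sod3, Gpx3, Gsta4 and Mgst1 fell. In steady 900 against steady 300, 14 of 37 members were higher, against 20.2% of all genes, and 17 were lower, against 22.3%. Of the 37, 28 were among the brightest genes, which passed the F test more often. Shares of bright genes higher or lower are given only for decreases 3 h after the step to 600 and 12 h after the step to 900 mosmol/kg. Counts set against all genes alone are therefore not read as an excess among the members. Their median change was -0.12, against -0.0032 for all genes, and their median absolute change was 0.56, against 0.20. In steady 600 against steady 300, 10 were higher (13.7% of all genes) and 11 lower (13.4%), with a median of -0.06, against 0.01 for all genes. In steady 900 against steady 600, 12 were higher (11.3%) and 12 lower (12.9%), with a median of 0.04, against -0.01.

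Both regulators passed as higher in steady 600 and in steady 900 than in steady 300. Nfe2l2 held 10.33, 10.31 and 10.29 in steady 300, 10.90, 10.87 and 10.73 in steady 600, and 10.94, 10.91 and 10.83 in steady 900. Every array of both higher osmolalities lay above every steady 300 array, while the steady 600 and steady 900 arrays overlapped. Its change was 0.59 ± 0.11 (SE; limma adjusted p = 4.67e-05) in steady 900 and 0.53 ± 0.11 (limma adjusted p = 0.000345) in steady 600, each against steady 300. Keap1 held 7.74, 7.45 and 7.49 in steady 300, 7.80, 7.89 and 7.85 in steady 600, and 7.98, 8.01 and 7.73 in steady 900. Its change in steady 600 was 0.29 ± 0.097 (limma adjusted p = 0.0257), a call lost without replicate 2 or 3 of either group and with median centring. Keap1 also passed as higher in steady 900 than in steady 300 (means 7.91 and 7.56), a call kept in every alternative tried. The arrays of these groups overlapped slightly.

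Gsr, which reduces oxidised glutathione with NADPH, held 9.18, 9.14 and 9.12 in steady 300, 10.64, 10.54 and 10.49 in steady 600, and 11.28, 11.33 and 11.21 in steady 900. The 3 groups were separated by far more than the spread within any of them. The level was 4.37-fold higher in steady 900 than in steady 300 (log2 change 2.13 ± 0.073 SE, limma adjusted p = 3.82e-20) and 2.65-fold higher in steady 600 (1.41 ± 0.073, limma adjusted p = 1.84e-15). Me1, which makes cytosolic NADPH from malate, held 9.44, 9.57 and 9.48 in steady 300, 10.34, 10.15 and 10.10 in steady 600, and 11.10, 11.22 and 11.09 in steady 900. Its arrays also formed 3 groups without overlap, and the level was 3.12-fold higher in steady 900 than in steady 300 (1.64 ± 0.13, limma adjusted p = 3.78e-12). The pentose phosphate enzymes did not share this course: Tkt (transketolase) fell by 0.21 in steady 900, a call lost under 7 alternatives, and Taldo1 (transaldolase) did not pass the test (-0.09).

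Thioredoxin reductase moved against glutathione reductase. Txnrd1, the cytosolic enzyme, held 9.95, 9.85 and 9.86 in steady 300, 9.46, 9.64 and 9.55 in steady 600, and 9.27, 9.39 and 9.18 in steady 900. The groups did not overlap, and Txnrd1 was lower by 0.60 ± 0.075 in steady 900 than in steady 300 (limma adjusted p = 8.19e-08).

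Of the NRF2 targets Nqo1, Hmox1 and Srxn1, the quinone reductase gene Nqo1 passed as higher at steady high osmolality. It held 7.52, 7.58 and 7.57 in steady 300, 8.05, 8.31 and 8.24 in steady 600, and 8.54, 8.58 and 8.52 in steady 900, a change of 0.99 ± 0.089 in steady 900 against steady 300 (limma adjusted p = 1.45e-10). Hmox1, heme oxygenase 1, fell by 0.44 ± 0.10 in steady 600 (limma adjusted p = 0.00145) and Srxn1, sulfiredoxin, passed in neither comparison with steady 300 (-0.13 in steady 600 and -0.09 in steady 900). Among the genes of glutathione supply, Gclm was 0.87 ± 0.076 higher and the catalytic subunit gene Gclc 0.51 ± 0.090 higher in steady 900 than in steady 300. The cystine transporter gene Slc7a11 held 6.56, 6.66 and 6.77 in steady 300, 6.04, 5.76 and 5.97 in steady 600, and 6.34, 6.43 and 6.27 in steady 900. It was lowest in steady 600, by 0.74 ± 0.12 against steady 300 (limma adjusted p = 1.78e-05).

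Ggt1, the surface enzyme that breaks down glutathione outside the cell, held 5.69, 5.76 and 5.72 in steady 300, 6.03, 5.89 and 6.01 in steady 600, and 6.97, 6.89 and 6.82 in steady 900. Most of its rise lay between 600 and 900 mosmol/kg (0.92 ± 0.0775, limma adjusted p = 1.58e-10). Ggt1 is best known from the proximal tubule brush border. Of 10 proximal tubule and loop markers, 4 were higher and none lower in steady 900 than in steady 300, and the log2 of their summed level was 8.92 to 9.06 in steady 300, 11.41 to 11.63 in steady 600 and 12.37 to 12.48 in steady 900. Their median change was only 0.16 in steady 900 against steady 300, so most of these markers did not rise as their sum did. Their part in the Ggt1 level was not tested.

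Sod2 and Sod3, 2 of the 3 superoxide dismutase genes, fell with steady osmolality, mostly over different ranges. Sod2, the mitochondrial enzyme, held 12.10, 12.07 and 12.03 in steady 300, 10.70, 10.72 and 10.65 in steady 600, and 10.95, 10.93 and 10.88 in steady 900. It was 2.59-fold lower in steady 600 than in steady 300 (-1.37 ± 0.063, limma adjusted p = 1.15e-16) and 0.23 ± 0.063 higher in steady 900 than in steady 600. Sod3, the secreted enzyme, held 7.51, 7.25 and 7.47 in steady 300, 6.62, 7.08 and 6.87 in steady 600, and 5.39, 5.27 and 6.002 in steady 900. Its larger drop came between 600 and 900 mosmol/kg, by 1.31 ± 0.14 (limma adjusted p = 2.10e-08).

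Markers of cell types also differed between the steady groups. Principal cell markers were higher in 10 of 13 in steady 600 and 11 of 13 in steady 900, each against steady 300, and the log2 of their summed level was 10.18 to 10.33 in steady 300, 12.72 to 13.09 in steady 600 and 14.15 to 14.25 in steady 900. Leukocyte and macrophage markers were lower in 10 of 11 in steady 600 and 11 of 11 in steady 900, each against steady 300. The log2 of their summed level was 13.48 to 13.57 in steady 300, 11.93 to 11.99 in steady 600 and 11.61 to 11.74 in steady 900. Fibroblast and interstitial markers were lower in 8 of 10 in steady 900, and their summed level was 13.93 to 13.97 in steady 300, 13.53 to 13.76 in steady 600 and 11.77 to 11.86 in steady 900. Of 6 endothelial markers 3 were higher and 1 lower in steady 900 than in steady 300. Of 6 intercalated cell markers 1 was higher and 2 were lower. The log2 of the summed intercalated level was 9.42 to 9.66 in steady 300 and 7.27 to 7.45 in steady 900. In bulk RNA, fewer cells of a type and less RNA per cell cannot be told apart, and the part of these cells in the member levels was not tested. After 48 h at 600 mosmol/kg the leukocyte list stood at 11.86 to 11.97, and Sod2 stood at 11.90, 11.82 and 11.76, which was 1.14 ± 0.063 above steady 600 (limma adjusted p = 1.72e-14).

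The 5 glutathione peroxidases split. Gpx1, the ubiquitous cytosolic enzyme, held 9.77, 9.54 and 9.64 in steady 300, 10.26, 10.29 and 10.35 in steady 600, and 10.61, 10.34 and 10.54 in steady 900, and was 0.85 ± 0.095 higher in steady 900 than in steady 300 (limma adjusted p = 1.26e-08). Gpx3, the secreted enzyme, held 8.22, 8.23 and 8.45 in steady 300, 8.04, 8.38 and 8.31 in steady 600, and 7.11, 6.96 and 7.01 in steady 900. Only the steady 900 arrays stood apart, lower than steady 300 by 1.27 ± 0.17 (limma adjusted p = 2.21e-07). Gpx7, of the endoplasmic reticulum, fell by 0.78 ± 0.081 in steady 900, Gpx2 was 0.22 ± 0.082 higher there, a call lost under 5 alternatives, and Gpx4, the lipid peroxide reductase, did not pass (-0.12). Of the 6 peroxiredoxins, which reduce peroxides through thioredoxin or glutathione, none was higher and 4 were lower in steady 900, by 0.34 to 0.56.

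Of the 6 transferases, 3 were higher and 3 lower in steady 900 than in steady 300. Gstm1 held 8.47, 8.64 and 8.48 in steady 300, 9.71, 9.83 and 9.75 in steady 600, and 9.39, 9.29 and 9.25 in steady 900, so it was highest in steady 600, by 1.23 ± 0.11 over steady 300 (limma adjusted p = 1.47e-10). Gstm2 held 7.67, 7.42 and 7.38 in steady 300, 9.01, 8.79 and 8.68 in steady 600, and 9.47, 9.27 and 9.19 in steady 900, a 3.54-fold rise in steady 900 over steady 300 (1.82 ± 0.17, limma adjusted p = 2.17e-10). Gstm1 and Gstm2 are close paralogs, and cross-reading of their probe sets was not tested.

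Gsta4, an alpha-class enzyme that detoxifies the lipid aldehyde hydroxynonenal, went the other way. It held 7.29, 7.02 and 7.15 in steady 300, 6.21, 6.37 and 6.62 in steady 600, and 5.42, 5.56 and 5.30 in steady 900, lower by 1.72 ± 0.16 in steady 900 than in steady 300 (limma adjusted p = 3.96e-10). Microsomal Mgst1 held 10.03, 9.94 and 9.87 in steady 300, 9.32, 9.32 and 9.24 in steady 600, and 8.49, 8.50 and 8.45 in steady 900. Both fell at each increase with no overlap of arrays, Mgst1 by 1.47 ± 0.074 in all (limma adjusted p = 2.75e-16). Microsomal Mgst2 held 8.61, 8.67 and 8.39 in steady 300, 8.56, 8.52 and 8.29 in steady 600, and 9.39, 9.31 and 9.35 in steady 900. Only the steady 900 arrays stood apart, higher than steady 600 by 0.89 ± 0.13 (limma adjusted p = 3.45e-06). Gstp1 fell by 0.88 ± 0.075 in steady 900 against steady 300.

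**Figure D2:**
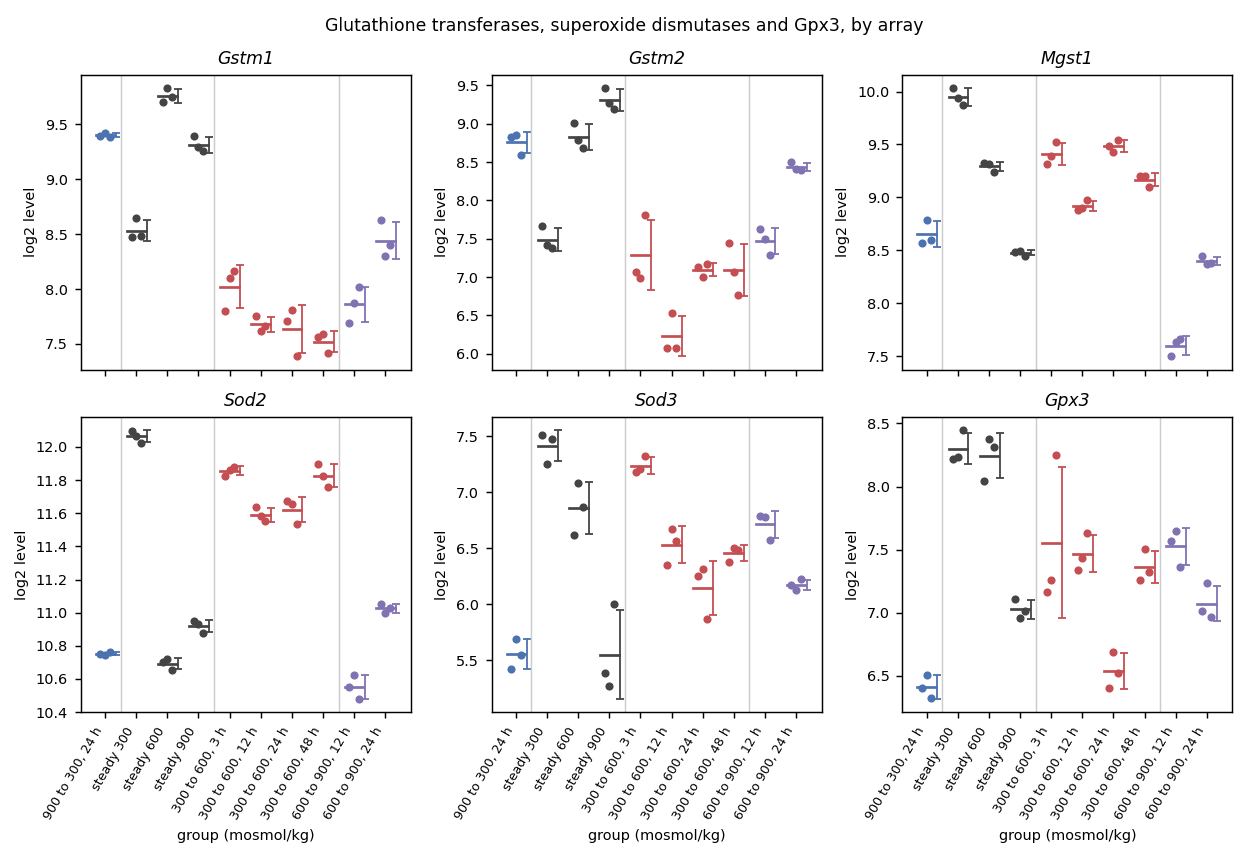
Log2 level of 6 genes in each array (points), with group means (lines) and SD (bars), 3 arrays per group; groups run along the horizontal axis in mosmol/kg. Gstm1 and Gstm2 sit high in steady 600 and steady 900 and lie below both of these groups after the upward steps. Sod2 stays above 11.5 through 48 h at 600 mosmol/kg while the steady 600 arrays lie at or below 10.72.

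After the step from 300 to 600 mosmol/kg, most member calls were decreases at first and both directions later. At 3 h, 2 members were higher (12.1% of all genes) and 20 lower (29.5%), with a median of -0.21, against -0.04 for all genes. Among the brightest of 3 equal groups of genes, 52.1% were lower, and 16 of the 28 members in that group (57.1%) were lower, a share near that of bright genes. The split also moved with scaling, to 7 higher and 14 lower with quantile normalization and with cyclic loess, and the lower share of all called genes was 58.34% and 59.1% there, against 70.88%. At 12 h, 6 were higher (11.9%) and 17 lower (22.6%), at 24 h 6 were higher (9.4%) and 11 lower (13%), and at 48 h 7 were higher (9.57%) and 9 lower (12%). The members' medians were -0.19, -0.02 and -0.09, against -0.01, 0.01 and 0.01 for all genes.

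Nfe2l2 was low only at the first time point. From steady 300 (values above) it went to 9.70, 9.62 and 10.11 at 3 h, 10.28, 10.30 and 10.28 at 12 h, 10.41, 10.37 and 10.37 at 24 h and 10.41, 10.46 and 10.32 at 48 h. It fell by 0.50 ± 0.11 at 3 h (limma adjusted p = 0.000528), with replicate 3 the highest array, and by 0.29 to 0.32 with cyclic loess and quantile normalization. At no later time did it pass the test, and at 48 h it was still 0.44 ± 0.11 below steady 600 (limma adjusted p = 0.00318). Keap1 held 7.16, 7.46 and 7.47 at 3 h, 7.86, 7.90 and 7.87 at 12 h, 7.80, 7.69 and 7.50 at 24 h and 7.67, 7.64 and 7.54 at 48 h. It passed only at 12 h, higher by 0.32 ± 0.097 (limma adjusted p = 0.0114), and not without replicate 2 or 3 of steady 300.

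NRF2 target genes passed at different times. Hmox1, with 8.62, 8.53 and 8.64 in steady 300, held 8.84, 9.12 and 8.98 at 3 h, 9.33, 9.17 and 9.19 at 12 h, 8.88, 8.98 and 8.63 at 24 h and 7.92, 7.98 and 7.89 at 48 h. It was thus higher at 3 h (0.38 ± 0.10, limma adjusted p = 0.00346) and at 12 h (0.63 ± 0.10, limma adjusted p = 1.45e-05) and lower at 48 h (-0.67 ± 0.10, limma adjusted p = 1.05e-05). Nqo1 held 7.15, 7.21 and 6.93 at 3 h, 7.70, 7.50 and 7.36 at 12 h, 8.53, 8.48 and 8.37 at 24 h and 8.07, 8.30 and 8.10 at 48 h. It was below steady 300 at 3 h (-0.46 ± 0.089, limma adjusted p = 0.000148), overlapped it at 12 h and was 1.87-fold above it at 24 h (0.90 ± 0.089, limma adjusted p = 4.12e-09). With cyclic loess the 3 h changes were 0.58 for Hmox1 and -0.27 for Nqo1. Differences between the time points themselves were not tested.

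Gclm rose later and stayed up. Its arrays, at 9.11, 8.92 and 9.04 in steady 300, held 9.06, 9.14 and 8.95 at 3 h, 9.33, 9.45 and 9.22 at 12 h, 9.90, 9.86 and 9.70 at 24 h and 10.23, 10.20 and 10.07 at 48 h. From 12 h on no array overlapped steady 300, and the change reached 1.14 ± 0.076 at 48 h (limma adjusted p = 1.50e-12), 0.56 ± 0.076 above steady 600 (limma adjusted p = 1.11e-06). Its partner Gclc did not follow. It held 8.36, 8.36 and 8.56 at 3 h, against 8.96, 8.98 and 8.96 in steady 300, lower by 0.54 ± 0.090 (0.33 to 0.36 with cyclic loess and quantile normalization), and passed at no later time. Slc7a11 held 5.91, 6.19 and 6.34 at 3 h, 7.21, 7.48 and 7.21 at 12 h, 7.69, 7.31 and 7.35 at 24 h and 6.54, 6.65 and 6.43 at 48 h. It was lower at 3 h (-0.51 ± 0.12), higher at 12 h (0.64 ± 0.12, limma adjusted p = 0.000123) and at 24 h (0.79 ± 0.12, limma adjusted p = 1.03e-05), and overlapped steady 300 at 48 h. Gss, glutathione synthetase, fell by 0.51 ± 0.078 at 12 h.

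Me1 was the member with the largest rise at 12 h. It held 8.94, 9.02 and 9.57 at 3 h, 10.56, 10.75 and 10.60 at 12 h, 10.25, 10.27 and 10.31 at 24 h and 10.26, 10.21 and 10.11 at 48 h. From 12 h on all arrays lay above the steady 300 arrays, by 1.14 ± 0.13 at 12 h (limma adjusted p = 2.56e-08) and 0.69 ± 0.13 at 48 h, where they lay within the steady 600 range. The decrease at 3 h (-0.32) was lost under 8 alternatives, among them leaving out replicate 1 or 2 of the 3 h group or any steady 300 array, and was -0.52 without replicate 3. Gsr rose more slowly, to 9.20, 9.26 and 9.08 at 3 h, 9.54, 9.52 and 9.39 at 12 h, 9.88, 9.82 and 9.70 at 24 h and 9.86, 9.80 and 9.65 at 48 h. At 48 h it was 0.62 ± 0.073 above steady 300 (limma adjusted p = 9.99e-08) and 0.78 ± 0.073 below steady 600 (limma adjusted p = 9.64e-10). Txnrd1 was lower at all 4 times, by 0.45 to 0.55, with its 3 h change at -0.28 with quantile normalization and -0.24 with cyclic loess.

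**Figure D3:**
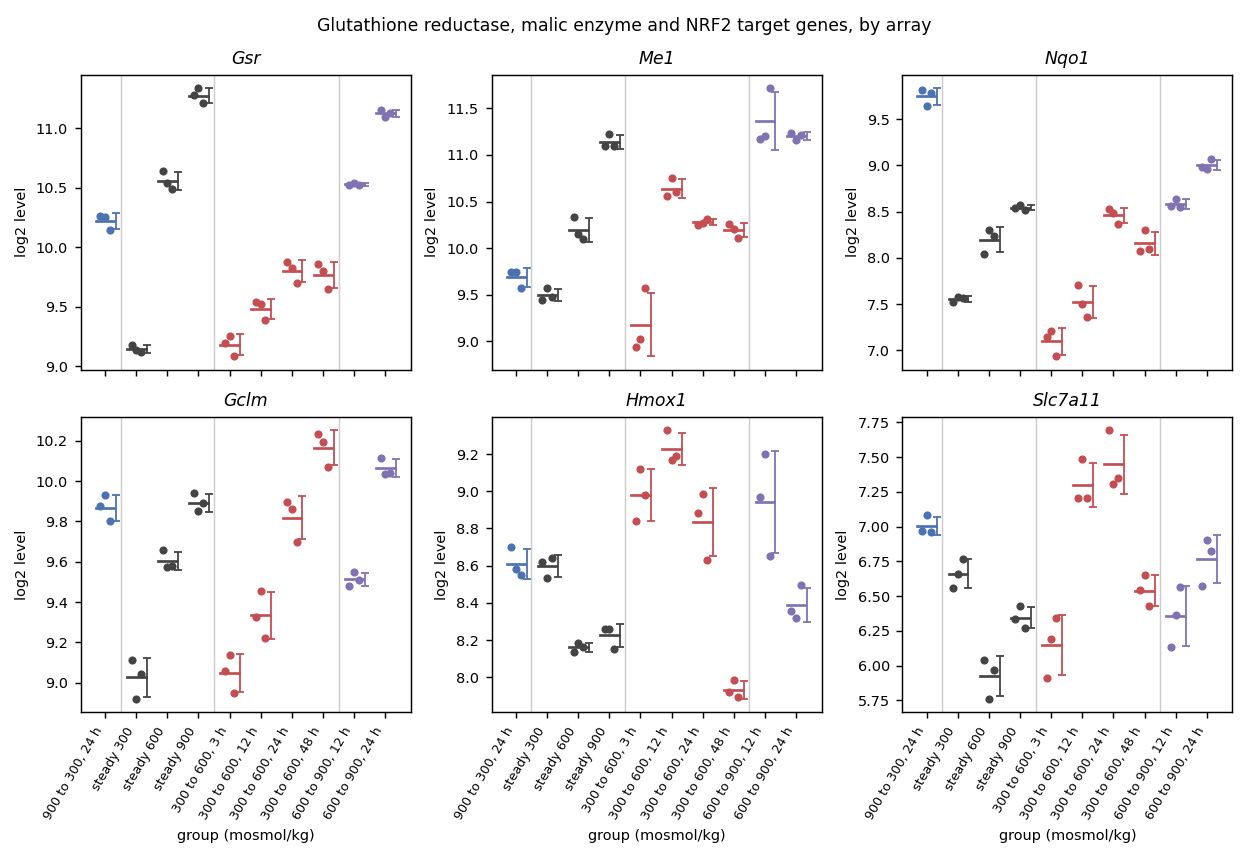
Log2 level of 6 genes in each array (points), with group means (lines) and SD (bars), 3 arrays per group; groups run along the horizontal axis in mosmol/kg. Gsr and Me1 climb with steady osmolality, Gclm climbs through 48 h after the step to 600 mosmol/kg, and Hmox1 is high at 3 and 12 h and lowest at 48 h.

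Among the peroxide-removing enzymes, Gpx2 changed direction. It held 10.61, 10.52 and 10.61 in steady 300, 10.09, 10.005 and 9.69 at 3 h, 10.04, 10.09 and 10.06 at 12 h, 11.12, 11.13 and 10.96 at 24 h and 11.01, 11.00 and 10.92 at 48 h. It was below steady 300 at 3 h (-0.65 ± 0.082, limma adjusted p = 3.36e-07) and 12 h (-0.52 ± 0.082) and above it at 24 h (0.49 ± 0.082) and 48 h (0.39 ± 0.082, limma adjusted p = 0.000546), with no overlap of arrays at any time. Gpx7 held 9.32, 9.29 and 9.30 in steady 300, 8.65, 8.63 and 8.97 at 3 h, 8.47, 8.47 and 8.41 at 12 h, 8.52, 8.45 and 8.51 at 24 h and 8.04, 8.12 and 8.11 at 48 h. It was lower throughout, 2.32-fold at 48 h (-1.21 ± 0.081, limma adjusted p = 1.54e-12); its 3 h change was -0.56, and -0.36 with cyclic loess.

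Secreted Gpx3 held 7.16, 7.26 and 8.25 at 3 h, 7.34, 7.43 and 7.63 at 12 h, 6.41, 6.69 and 6.52 at 24 h and 7.26, 7.51 and 7.33 at 48 h. Its lowest point was 24 h (-1.76 ± 0.17 against steady 300, limma adjusted p = 1.99e-09), and at 3 h replicate 3 alone reached the steady 300 range. Secreted Sod3 held 7.18, 7.21 and 7.32 at 3 h, 6.35, 6.67 and 6.56 at 12 h, 6.25, 6.31 and 5.87 at 24 h and 6.38, 6.50 and 6.49 at 48 h, lowest at 24 h too (-1.27 ± 0.14, limma adjusted p = 4.15e-08). The summed fibroblast marker level was 13.69 to 14.11 at 3 h, 13.49 to 13.64 at 12 h, 12.62 to 12.73 at 24 h and 12.68 to 12.81 at 48 h, and its part in the Gpx3 and Sod3 levels was not tested. Sod2 fell by 0.47 ± 0.063 at 12 h (limma adjusted p = 6.62e-07). The leukocyte list stood at 13.43 to 13.79 then, against 13.48 to 13.57 in steady 300, and its part in the Sod2 level was not tested. Prdx5, a peroxiredoxin of mitochondria and peroxisomes, held 9.87, 9.86 and 9.63 at 3 h, against 9.52, 9.49 and 9.60 in steady 300. With Hmox1 it made up the increases at 3 h, but its call (0.25 ± 0.091, limma adjusted p = 0.0288) was lost under 6 alternatives, among them median centring and leaving out replicate 1 or 2 of either group, and its change was 0.42 with quantile normalization and 0.46 with cyclic loess. Catalase (Cat) was lower at 3 h (-0.48 ± 0.098, and -0.31 with quantile normalization and -0.29 with cyclic loess) and 12 h (-0.55 ± 0.098) and did not pass at 24 or 48 h (-0.09 and -0.17).

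Of the 6 transferases, none was higher and 3 were lower at 3 h, and 4 were lower at 12 h and at 24 h with none higher. At 48 h 1 was higher and 3 were lower. Of these calls, that of Gsta4 at 3 h (-0.46) was lost under 6 alternatives and that of Gstp1 at 24 h (-0.21) under 8. Gstm1 held 7.80, 8.10 and 8.16 at 3 h, 7.76, 7.62 and 7.67 at 12 h, 7.71, 7.81 and 7.39 at 24 h and 7.56, 7.59 and 7.41 at 48 h, with every array below every steady 300 array (-1.01 ± 0.11 at 48 h, limma adjusted p = 1.40e-08). Gstm2 held 7.07, 6.99 and 7.82 at 3 h, 6.08, 6.54 and 6.07 at 12 h, 7.13, 7.001 and 7.17 at 24 h and 7.44, 7.07 and 6.76 at 48 h, and passed only at 12 h (-1.26 ± 0.17, limma adjusted p = 6.96e-07). Mgst1 was lowest at 12 h with 8.88, 8.90 and 8.98, lower than steady 300 by 1.03 ± 0.074 (limma adjusted p = 7.49e-12). The increase at 48 h was Gsta4, with 7.79, 8.07 and 7.90, higher than steady 300 by 0.77 ± 0.16 (limma adjusted p = 0.000705); its second probe set gave 0.56.

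At 12 h after the step from 600 to 900 mosmol/kg, Me1, Hmox1 and Slc7a11 rose most and Gstm1, Mgst1 and Gstm2 fell most among the members. In all, 5 members were higher (12.5% of all genes) at that time and 17 lower (25.3%), with a median of -0.26, against -0.03 for all genes. Here too 41.2% of the brightest of 3 equal groups of genes were lower, and 14 of the 28 members in it were lower. The share of decreases among all called genes was 66.96%, and 55.06% with median centring, 54.26% with quantile normalization and 55.81% with cyclic loess. The split of members moved too, to 7 higher and 14 lower with quantile normalization and 6 and 14 with median centring or cyclic loess. With trended and robust variance it was 5 and 22. At 24 h, 10 were higher (11.2%) and 10 lower (14.7%), with a median of 0.03, against 0.01, and the share of decreases among all called genes was 56.66%, and 46.05% with median centring.

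Me1 held 10.34, 10.15 and 10.10 in steady 600, 11.17, 11.20 and 11.72 at 12 h and 11.24, 11.16 and 11.22 at 24 h, a change of 1.17 ± 0.13 at 12 h (limma adjusted p = 1.13e-08) and 1.01 ± 0.13 at 24 h. Replicate 9 was the highest array at 12 h, and all others also lay above steady 600. Hmox1 held 8.14, 8.18 and 8.16 in steady 600, 8.97, 9.20 and 8.65 at 12 h and 8.36, 8.32 and 8.49 at 24 h, higher by 0.78 ± 0.10 at 12 h (limma adjusted p = 4.22e-07). Slc7a11 held 6.04, 5.76 and 5.97 in steady 600, 6.13, 6.36 and 6.57 at 12 h and 6.58, 6.90 and 6.82 at 24 h, higher by 0.84 ± 0.12 at 24 h (limma adjusted p = 3.21e-06). All 3 passed as higher at 12 h. No overlap with steady 600 was part of the rule that picked them, so it is not counted as support. Ggt1 passed at 24 h and not at 12 h (0.14), with 6.03, 5.89 and 6.01 in steady 600, 6.20, 6.11 and 6.03 at 12 h and 7.04, 6.89 and 6.90 at 24 h (0.97 ± 0.0775 at 24 h, limma adjusted p = 6.81e-11). The proximal tubule and loop list stood at 11.41 to 11.63 in steady 600, 11.19 to 11.22 at 12 h and 12.43 to 12.54 at 24 h beside it. The median marker change of that list at 24 h was 0.17, with 3 of 10 higher.

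Gstm1 held 9.71, 9.83 and 9.75 in steady 600, 7.69, 7.87 and 8.02 at 12 h and 8.63, 8.30 and 8.40 at 24 h. All 6 arrays lay more than 1 below steady 600, and the level was 3.74-fold lower at 12 h (-1.90 ± 0.11, limma adjusted p = 2.28e-14). Mgst1 held 9.32, 9.32 and 9.24 in steady 600, 7.50, 7.64 and 7.66 at 12 h and 8.45, 8.37 and 8.38 at 24 h, lower by 1.70 ± 0.074 at 12 h (limma adjusted p = 1.04e-16). Gstm2 held 9.01, 8.79 and 8.68 in steady 600, 7.63, 7.50 and 7.29 at 12 h and 8.50, 8.41 and 8.40 at 24 h, lower by 1.36 ± 0.17 at 12 h (limma adjusted p = 1.41e-07). Gpx3 held 8.04, 8.38 and 8.31 in steady 600, 7.57, 7.65 and 7.36 at 12 h and 7.02, 7.23 and 6.97 at 24 h, lower by 1.17 ± 0.17 at 24 h, beside a fibroblast list that was lower in 9 of 10 then. Of the 6 peroxiredoxins 4 were lower at 12 h, by up to 0.94 ± 0.084 in Prdx6, which also repairs oxidised membrane lipids. Among the 4, Prdx1 (-0.22) lost its call with quantile, median and cyclic loess scaling and with only the compared arrays. Nfe2l2 held 10.55, 10.45 and 11.02 at 12 h and 10.64, 10.72 and 10.66 at 24 h and passed at neither time, while Keap1 held 8.26, 8.10 and 7.93 at 12 h and 7.98, 7.99 and 7.99 at 24 h, its call at 12 h being lost under 7 alternatives, the replicate block among them.

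The 2 upward steps were compared directly at 12 h by the difference of their changes, which passed in 10 of 37 members (13.4% of all genes), and at 24 h in 7 (12.9%). Gstm1 was the largest difference at 12 h: it fell by 1.90 after the step to 900 mosmol/kg and by 0.85 after the step to 600 mosmol/kg (difference -1.05 ± 0.15, limma adjusted p = 8.66e-06). Mgst1 likewise fell by 1.70 and by 1.03 (difference -0.67 ± 0.10, limma adjusted p = 3.15e-05). At 24 h the largest difference was Ggt1, at 0.97 after the step to 900 mosmol/kg and -0.06 after the step to 600 mosmol/kg (difference 1.02 ± 0.11, limma adjusted p = 1.11e-07). Both steps were set against different starting cultures, and their osmolalities cannot be told apart from those starting states.

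**Figure D4:**
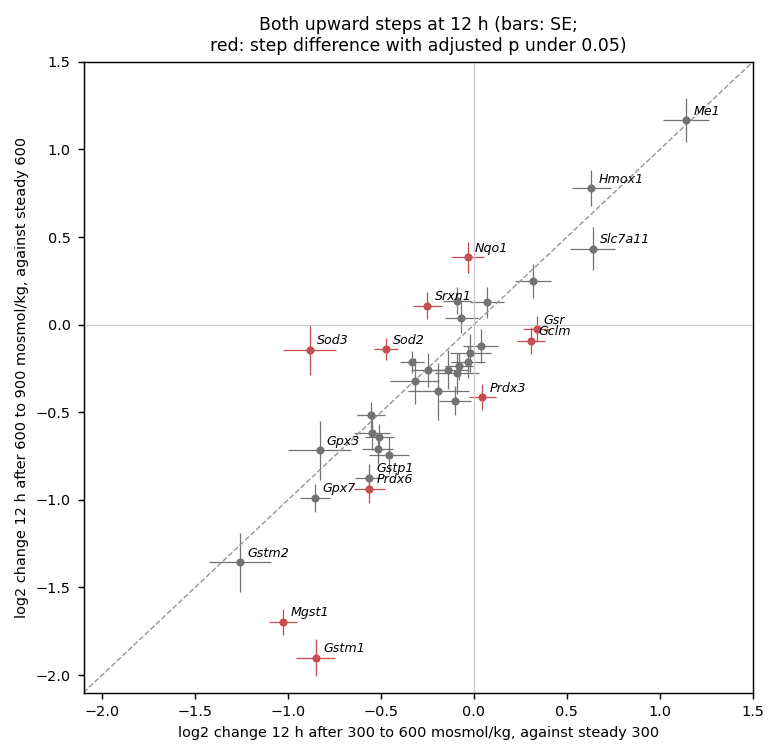
Log2 change of each of the 37 genes 12 h after the step from 600 to 900 mosmol/kg (vertical axis) against that 12 h after the step from 300 to 600 mosmol/kg (horizontal axis), with SE bars; the dashed line marks equal changes and red marks a step difference with limma adjusted p under 0.05. Gstm1 and Mgst1 lie far below the line, and Me1 lies near it at 1.17 and 1.14.

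After the return from 900 to 300 mosmol/kg, Me1 and Gsr were lower and 5 of 6 peroxiredoxins higher than in steady 900. In the returned cultures 14 of 37 members were higher than in steady 900 (19.3% of all genes) and 10 lower (18.5%), with a median of 0.03, against -0.02 for all genes. Against steady 300, 17 were higher (20.4%) and 10 lower (22.2%). The returned cultures thus differed from those kept at 300 mosmol/kg in 27 members.

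Me1 held 9.74, 9.75 and 9.57 in the returned cultures, against 11.10, 11.22 and 11.09 in steady 900. The arrays did not overlap, and Me1 was 2.73-fold lower (-1.45 ± 0.13, limma adjusted p = 1.83e-10). Gsr held 10.26, 10.25 and 10.14 in the returned cultures, against 11.28, 11.33 and 11.21 in steady 900, lower by 1.05 ± 0.073 (limma adjusted p = 2.14e-12), yet it was 1.07 ± 0.073 above steady 300. Gpx1 held 9.57, 9.52 and 9.72 in the returned cultures, against 10.61, 10.34 and 10.54 in steady 900, lower by 0.89 ± 0.095 (limma adjusted p = 1.13e-08). Ggt1 held 6.08, 5.91 and 6.05 in the returned cultures, against 6.97, 6.89 and 6.82 in steady 900 (-0.88 ± 0.0775), with the proximal tubule and loop list at 9.76 to 9.92 against 12.37 to 12.48. The median marker change of that list was -0.20, with 5 of 10 lower. For Me1, Gsr and Gpx1 the absence of overlap with steady 900 was part of the rule that picked them.

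Gstp1, a cytosolic transferase, held 10.70, 10.66 and 10.67 in the returned cultures, against 9.47, 9.40 and 9.44 in steady 900, and was 2.36-fold higher (1.24 ± 0.075, limma adjusted p = 1.50e-13). Nqo1 held 9.82, 9.65 and 9.78 in the returned cultures, against 8.54, 8.58 and 8.52 in steady 900 (1.20 ± 0.089, limma adjusted p = 8.49e-12). These Nqo1 values were the highest of all 30 arrays and 4.58-fold above steady 300. Prdx4, the peroxiredoxin of the endoplasmic reticulum, held 8.40, 8.40 and 8.24 in the returned cultures, against 7.28, 7.22 and 7.09 in steady 900 (1.15 ± 0.11, limma adjusted p = 6.63e-10). Txnrd1 held 10.41, 10.36 and 10.33 in the returned cultures, against 9.27, 9.39 and 9.18 in steady 900 (1.08 ± 0.075, limma adjusted p = 2.20e-12), also above every other group.

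In all, 5 of 6 peroxiredoxins rose, by 0.23 to 1.15, Prdx3 with the smallest rise losing its call with quantile normalization, with the replicate block and without replicate 3 of steady 900. All 3 of Nqo1, Hmox1 and Srxn1 rose, as did Taldo1 (0.45 ± 0.084) and Tkt (0.55 ± 0.077), while Nfe2l2, with 10.79, 10.93 and 10.88, did not pass (-0.03), and Keap1, with 7.60, 7.64 and 7.60, fell by 0.29 ± 0.097, a call lost without replicate 1 or 2 of steady 900. Sod3 (5.43, 5.69 and 5.55), Mgst1 (8.57, 8.79 and 8.59) and Sod2 (10.75, 10.74 and 10.76) stayed far from their steady 300 levels, lower by 1.86, 1.30 and 1.31 than in steady 300. Principal cell markers were lower in 10 of 13 than in steady 900. The leukocyte list stood at 11.02 to 11.12 and the fibroblast list at 11.79 to 11.81 in the returned cultures, both also below steady 300, and their part was not tested.

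**Figure D5:**
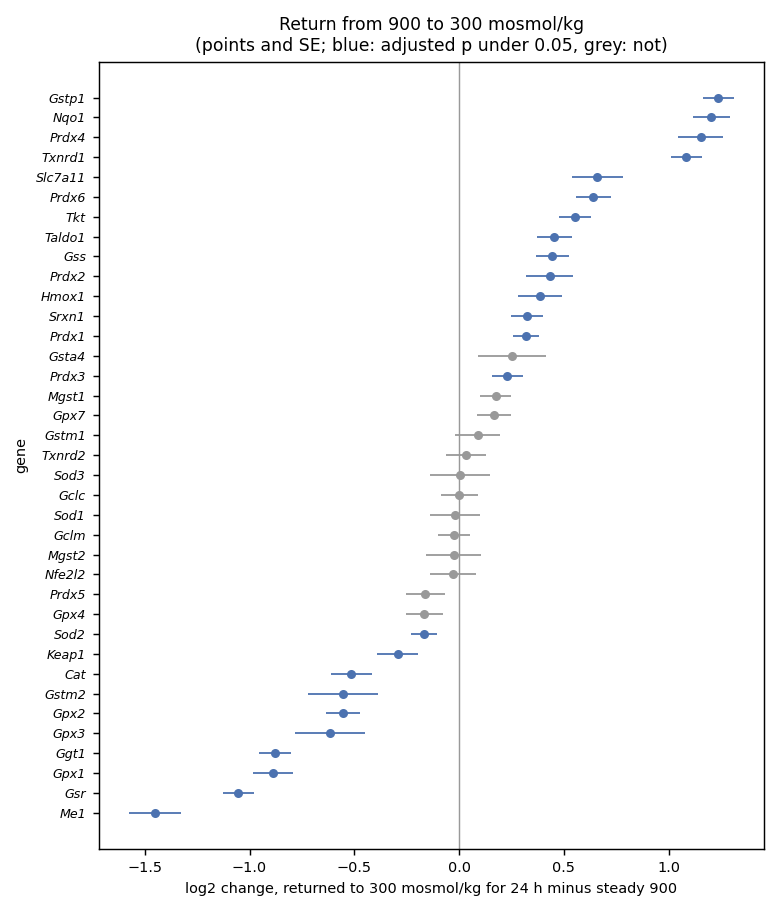
Log2 change (points, with SE bars) of each of the 37 genes in cultures returned to 300 mosmol/kg for 24 h minus steady 900, 3 arrays each; blue marks a limma adjusted p under 0.05 and grey the rest. Gstp1, Nqo1, Prdx4 and Txnrd1 lie above 1, and Me1 and Gsr below -1.

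Acutely raised cultures were also set against those kept at the same osmolality. After 48 h at 600 mosmol/kg, 8 members were higher than in steady 600 (9.47% of all genes) and 10 lower (12.5%). Gstm1 was 4.72-fold lower (-2.24 ± 0.11, limma adjusted p = 6.86e-16) and Gstm2 3.34-fold lower (-1.74 ± 0.17, limma adjusted p = 2.07e-09), whereas Gsta4 (1.52 ± 0.16, limma adjusted p = 1.73e-08) and Sod2 (1.14 ± 0.063) were higher. Me1 lay within the range of steady 600 by then (the difference did not pass). After 24 h at 900 mosmol/kg, 5 members were higher than in steady 900 (9.47%) and 3 lower (8.83%), those lower being Gstm1, Gstm2 and Mgst2, and the other 29 did not pass. These shares are near those of all genes. Principal cell markers were lower in 10 of 13 after 48 h at 600 mosmol/kg than in steady 600 and in 4 of 13 after 24 h at 900 mosmol/kg than in steady 900, and their part in the members' levels was not tested.

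Other genes of the same pathways were followed as a separate list of 95, of which 88 were measured. In steady 900 against steady 300, 20 were higher (20.2% of all genes) and 25 lower (22.3%), with a median of -0.04. These counts are near the all-gene shares. Ephx1, which hydrolyses epoxides (2.22 ± 0.13), the efflux pump gene Abcc4 (2.14 ± 0.074) and the metallothionein gene Mt2A (2.07 ± 0.12) rose most, and the selenium carrier gene Selenop (-2.08 ± 0.14) and the NADPH oxidase genes Nox4 (-1.96 ± 0.091) and Nox1 (-1.80 ± 0.13) fell most. At 12 h after the step to 600 mosmol/kg, 11 were higher (11.9% of all genes) and 33 lower (22.6%), led by Abcc4 (1.81 ± 0.074), Mt1 (1.25 ± 0.085) and Sesn3 (0.79 ± 0.069) among increases and by Ephx1 (-1.25 ± 0.13), Gstm4 (-1.24 ± 0.083) and Gstm5 (-1.06 ± 0.13) among decreases. On return, 28 were higher (19.3% of all genes) and 16 lower (18.5%) than in steady 900. The transferase gene Gsta1 (1.39 ± 0.15) and the glutaredoxin genes Glrx3 (1.08 ± 0.081) and Glrx (0.89 ± 0.11) rose most, and Cybb, the phagocyte oxidase gene (-2.45 ± 0.14), Abcc4 (-1.52 ± 0.074) and Sesn1 (-1.13 ± 0.068) fell most, Cybb beside 7 of 11 leukocyte markers that were lower.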

How the data were processed

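The deposited values are log2 expression values, 1 column per array, made by the authors with RMA (robust multi-array average) per the submitters' processing notes; version and software: not given in the sources used here. RMA equalises the arrays, so a shift shared by all genes would not be seen. Of 29170 probe sets, 15310 carried 1 gene symbol in the platform annotation, 323 several and 13537 none. Each gene was its single-symbol probe set with the highest mean, which gave 14506 genes. Groups came from the sample titles.

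One mean per group was fitted over all 30 arrays with limma 3.58.1 (lmFit, eBayes) in R 4.3.3. Contrasts of groups and the difference of the 2 upward steps were adjusted over all 14506 genes by the Benjamini-Hochberg method, and adjusted p under 0.05 was called. The code was tested on simulated data. The members, lists and comparisons were chosen with earlier results of these data known. Array values were given for Nfe2l2, Keap1 and, in each of 10 comparisons, the 3 largest called increases and decreases without overlap between groups. In the genes picked by size of change, the absence of overlap follows from the rule, and its share over all genes is not given here. Other members were described by role, and those beyond this rule were chosen after their values were seen. Of the other pathway genes the 3 largest in each direction were named in 3 comparisons. Alternatives were quantile, median and cyclic loess scaling, leaving out dim genes, averaging probe sets, trended and robust variance, a replicate block, fitting only the compared arrays and leaving out each array. The number of arrays limits the precision, and no array background or scan batch was used here.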

Additional observations from a re-analysis of the deposited data

Results flagged for a closer look

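The response to the 2 upward steps differed in 10 of 37 members at 12 h (13.4% of all genes) and in 7 at 24 h (12.9%). The limma test was of the difference of both changes (step from 600 to 900 mosmol/kg minus step from 300 to 600 mosmol/kg). At 12 h the difference was 0.42 for Nqo1, whose change was 0.38 after the step to 900 mosmol/kg, against -0.03 after the step to 600 mosmol/kg. Sod3 differed by 0.74 (-0.14, against -0.88), Srxn1 by 0.36 (0.11, against -0.25) and Sod2 by 0.33 (-0.14, against -0.47). Their decreases at 12 h passed in the first step and not in the second. Sod2 had a change of -1.37 in steady 600 against steady 300, so its second step started from a lower level. Gclm differed by -0.40 (-0.09, against 0.31) and Gsr by -0.36 (-0.03, against 0.34), so their increases at 12 h passed in the first step and not in the second. Prdx3 differed by -0.46 (-0.41, against 0.05), Prdx6 by -0.37 (-0.94, against -0.56), Mgst1 by -0.67 (-1.70, against -1.03) and Gstm1 by -1.05 (-1.90, against -0.85), lower after the second step.

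At 24 h Ggt1 differed by 1.02 (0.97, against -0.06), Mgst2 by 0.86 (0.39, against -0.47), Sod2 by 0.78 (0.34, against -0.44), Prdx5 by 0.58 (0.12, against -0.46) and Gpx7 by 0.39 (-0.42, against -0.81). Gclm differed by -0.33 (0.46, against 0.79) and Mgst1 by -0.43 (-0.89, against -0.46). Mgst1, Sod2 and Gclm passed at both times. The differences of Sod3, Prdx3, Gstm1 and Mgst1 at 12 h and of Ggt1, Sod2, Prdx5, Mgst1 and Mgst2 at 24 h kept their call in every alternative tried, and each of the other 8 lost it in at least 1. The leukocyte list moved with the steps as well: its median step difference was -1.18 at 12 h and 0.12 at 24 h, and its part was not tested. Both steps were 300 mosmol/kg in size, and the osmolality reached cannot be told apart from the starting culture. With 3 arrays per group, no test for an outlying array was run on single genes.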

How the results depend on the processing

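Of 290 called member results, 233 kept their call and direction in all alternatives and 57 lost the call or reversed in at least 1; the largest absolute change among these 57 was 0.55. Calls were lost in 20 with each of quantile, median and cyclic loess scaling, in 17 with only the compared arrays, in 1 with trended and robust variance and in 51 when some array was left out. Prdx3 at 3 h reversed to 0.0153 with cyclic loess (-0.19 as deposited). Uncalled values near 0 also changed sign: Nqo1 12 h after the step to 600 mosmol/kg (0.0225 with quantile, 0.0045 with cyclic loess, -0.1243 to 0.0456 when arrays were left out, positive without replicate 3 of that group), and, 12 h after the step to 900 mosmol/kg, Gclm (0.0183 and 0.0624 with quantile and cyclic loess), Gsr (0.13, 0.0402 and 0.14 with quantile, median centring and cyclic loess, -0.0593 to 0.0166 when arrays were left out, positive without replicate 1 of steady 600) and Sod2 (0.0066 and 0.0663 with quantile and cyclic loess). The members whose steps differed numbered 6 at 12 h (10 over all arrays) and 13 at 24 h (7 over all arrays) with only the compared arrays, and ranged from 7 to 11 and from 5 to 8 when arrays were left out. The step differences of Gsr at 12 h and Gclm at 24 h were lost under all 3 scalings, and those of Gclm and Prdx6 at 12 h with median centring and cyclic loess. At 3 h, 7 members were higher and 14 lower with quantile or cyclic loess scaling, against 2 and 20. The cause was not tested. Pairing by array number was checked on the deviations of arrays from their group means. Between same-numbered arrays of different groups these correlated at -0.126 to 0.238 (median 0.012, over 0.1 in 11 of 114 pairs). Between differently numbered arrays they correlated at -0.281 to 0.226 (median -0.008, over 0.1 in 20 of 291 pairs). The ranges overlapped, and the main fit used no pairing. With the replicate block 5 calls were lost, and counts were 23 instead of 22 at 3 h and 10 instead of 7 for the step difference at 24 h. Signal over background was not used here, so changes near the low end of the scale are limited by what RMA leaves.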
